A study of Mus musculus with 12 samples.

Results

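The genes described here are 43 genes of fatty acid oxidation and of the peroxisome, found by their symbols among the 55491 genes of the deposited tables. They were chosen by symbol and known function, with earlier results of these data known. No measured value enters the rule itself. By the compartment of their product, 20 are mitochondrial, 12 are peroxisomal and 4 have been placed in both organelles (Crat, Acad11, Eci2 and Amacr). The other 7 were counted with neither: the regulators Ppara and Ppargc1a, the long-chain acyl-CoA synthetases Acsl1, Acsl3, Acsl4 and Acsl5, and Cpt1c. The synthetases were grouped as membrane proteins, although Acsl5 is also found on the outer mitochondrial membrane. PT-22 is a mouse kidney cell line labelled as proximal tubule. Its genotype, shared by every group including the controls, is Pax2-/-, Pax8 fl/fl, Rosa-CreERT2. The cells thus lack Pax2, hold loxP sites around part of both Pax8 alleles, and express from the ubiquitous Rosa26 locus a Cre that becomes active in the presence of 4-hydroxytamoxifen. The study sequenced polyA RNA of 4 groups with 3 libraries each (A, B and C). Control cells were confluent and untreated. The other groups had received 1 µM 4-hydroxytamoxifen over 2 days, to deplete the transcription factor PAX8, and were sampled on day 2, day 6 or day 12. Only 1 line was used. No library received vehicle alone and none was an untreated sample of a later day. Drug, Cre activity, time in culture, any difference in confluence and PAX8 depletion therefore cannot be told apart. Whether the 3 libraries of a group stem from independent cultures is not stated, and the p-values may reflect technical spread only.

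Fatty acids are oxidized in both organelles. An acyl-CoA synthetase first couples the fatty acid to coenzyme A. The carnitine shuttle, with CPT1 on the outer and CPT2 on the inner mitochondrial membrane, then carries long chains into the mitochondrion. There acyl-CoA dehydrogenases, hydratases, 3-hydroxyacyl-CoA dehydrogenases and thiolases shorten them in turns of a spiral. Electron transfer flavoproteins pass the electrons of the acyl-CoA dehydrogenases to the respiratory chain. Peroxisomes shorten very long and branched chains with an acyl-CoA oxidase that makes hydrogen peroxide, which catalase removes, and peroxins build the organelle. The proximal tubule lives largely on fatty acid oxidation, and PPAR alpha (Ppara), together with its coactivator PGC-1 alpha (Ppargc1a), is the best known activator of these genes.

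Library totals ran from 4326667 counts (day 2 B) to 11654959 (day 2 C). Levels below are CPM, the counts scaled to a common library total with TMM (trimmed mean of M values), given as mean ± SD over 3 libraries. Fold changes, their standard errors (SE) and p-values adjusted by Benjamini-Hochberg over 13513 genes were obtained with the quasi-likelihood test of edgeR, with 0.05 as the threshold. Gene positions below are those of GENCODE M21 on GRCm38. Pax8 itself stood at 221, 228 and 226 CPM in control and 378, 460.4 and 367 CPM in the libraries labelled day 2. The libraries labelled day 6 had 249.5, 249 and 268 CPM, and those labelled day 12 had 252, 232 and 241 CPM. Every treated library was above every control library. The log2 fold change of Pax8 was 0.83 at day 2 (adjusted p = 5.59e-12), 0.18 at day 6 (adjusted p = 0.0181) and 0.10 at day 12 (adjusted p = 0.189). A whole-gene count also takes in exons that Cre leaves in place, and the labels do not name the deleted ones, so Pax8 counts are no check of the labels; the days below are as labelled. Of 18 proximal tubule markers 14 had a count, while the defining transporters Slc34a1, Slc5a2 and Slc5a12 were at 0 with Kap. Of the 10 that could be tested, 7 were lower at day 2 and 8 at days 6 and 12, beside 10.9%, 27.6% and 26.6% of all genes. On each day 1 was higher. That one was the water channel Aqp1, at 173 ± 3.37 CPM in control and 1044 ± 137 CPM at day 6 (named after its values were seen). The summed TPM (the deposited unit corrected for transcript length) of the 18 markers lay between 416.39 and 460.8 in control, 460.57 and 504.24 at day 2, 678.02 and 850.95 at day 6, and 412.83 and 527.87 at day 12. Fibroblast and smooth muscle markers (6 of 8 with a count, Pdgfra and Col3a1 at 0) summed to between 3.10 and 4.82 TPM in control and to between 290.46 and 353.63 TPM at day 12. Among them was the smooth muscle actin Acta2, at 3.11 ± 0.429 CPM in control and 293 ± 26.4 CPM at day 12, a unit other than that of the sums. Both marker lists moved with the same days as the results below, and their part in those results was not tested. In bulk RNA, fewer cells expressing a gene and less of its RNA per cell cannot be told apart.

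Promoter windows of RefSeq (assembly GRCm38.p6, 250 bases before to 50 after the start site) were found for 36 of the 43 genes. They were searched on both strands for DR1, the direct repeat of AGGTCA with 1 base between its copies that PPAR and RXR dimers bind. The other motifs searched were CAAAGTCCA, that of HNF4A, and TCAAGGTCA, that of oestrogen-related receptors. None of these 3 motifs occurred in a window of these genes; among all 32851 windows they occurred in 0.0396%, 0.475% and 0.423%. The half-site AGGTCA, which DR1 and the last motif contain, occurred in 8 of the 36 genes (22.2%) and in 18.1% of the 27025 genes with a window. Upstream of Scp2, which was higher at day 12, the half-site lies 109 bases from the start site, and its window is not shown. Shown here are 60 bases of 4 other windows that hold the half-site upstream of a gene whose transcript changed on some day. They are written 5′ to 3′ on the gene's strand with the half-site in capitals. In Cpt1a and Acadm it lies on the opposite strand and reads TGACCT. They are Cpt1a (chr19:3323180-3323239, plus strand), Acadm (chr3:153944834-153944893, minus strand), Echs1 (chr7:140116472-140116531, minus strand) and Cat (chr2:103485325-103485384, minus strand).
Cpt1a: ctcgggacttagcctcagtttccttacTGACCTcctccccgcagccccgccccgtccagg
Acadm: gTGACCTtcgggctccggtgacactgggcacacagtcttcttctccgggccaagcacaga
Echs1: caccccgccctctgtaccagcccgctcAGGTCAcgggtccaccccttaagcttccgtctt
Cat: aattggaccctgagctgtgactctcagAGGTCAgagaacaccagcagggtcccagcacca
The first base of the half-site lies 94 bases upstream of the start site in Cpt1a, 249 in Acadm, 83 in Echs1 and 204 in Cat. A match describes letters only, and its absence from a window says nothing of the factor. The 4 genes did not share 1 time course: Cpt1a was lower at days 2 and 12, Acadm higher at days 2 and 6, Echs1 higher at days 6 and 12 and Cat lower at days 6 and 12.

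Of the 43 genes 42 could be tested, and Ppara was under the filter on low counts. At day 2, 5 were higher and 7 lower than control (28.6% of the 42; 21.2% of all 13513 genes passed). At day 6, 10 were higher and 13 lower (54.8%, against 54.3% of all genes), while limma on the deposited TPM gave 9 higher and 6 lower. At day 12, 9 were higher and 12 lower (50%, against 52.8%). The share that changed was thus near that of all genes at days 6 and 12, and the directions were mixed. Over all genes 10.3% were higher and 10.9% lower at day 2, 26.7% and 27.6% at day 6, and 26.1% and 26.6% at day 12. Treated and control libraries did not overlap in 13, 26 and 24 of the 42 genes at the 3 days, beside 32.2%, 60.9% and 59.8% of all genes. Between treated days, 11 were higher and 8 lower at day 6 than at day 2, where 44.9% of all genes passed (22.6% higher, 22.3% lower). From day 6 to day 12, 5 were higher and 7 lower, beside 22% of all genes (11% in each direction). From day 2 to day 12, 9 were higher and 11 lower, beside 43.9% (22.3% higher, 21.6% lower). The median log2 fold change over the 42 genes was -0.06 at day 2, -0.07 at day 6 and 0.03 at day 12; on the TPM scale the day 6 median was 0.04. Across the 4 groups together 28 of the 42 passed the F-test, beside 65.1% of all genes. Against control, 29 of the 42 genes passed on at least 1 day and 13 on none, beside 66.7% and 33.3% of all genes. Higher on all 3 days were Acsl3, Acsl4 and Acsl5, and lower on all 3 days were Ppargc1a, Acsl1, Acaa2, Hadh and Etfb, that is 3 and 5 of 42 beside 7.67% and 8.16% of all genes. No gene (0 of 42) was higher than control on 1 day and lower on another, as were 1.67% of all genes.

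Mitochondrial and peroxisomal genes were counted apart. Of the 20 mitochondrial genes, 1 was higher and 5 were lower at day 2, 4 were higher and 8 lower at day 6, and 4 were higher and 7 lower at day 12, with medians of -0.06, -0.11 and -0.02 on the log2 scale. Of the 12 peroxisomal genes, 1 was higher and 0 were lower at day 2, and 1 was higher and 3 were lower at day 6 and again at day 12, with medians of -0.09, -0.09 and 0.06. On the TPM scale both day 6 medians lay just above 0 (0.03 for the mitochondrial and 0.0044 for the peroxisomal genes). Those passing were 30%, 60% and 55% of the mitochondrial and 8.33%, 33.3% and 33.3% of the peroxisomal genes at the 3 days, beside 21.2%, 54.3% and 52.8% of all genes. Peroxisomal genes that did not pass against control at any day were 7 of 12, and mitochondrial ones 3 of 20, beside 33.3% of all genes. Among the 4 genes of both organelles, 2 were higher at day 6 and 1 at day 12, and 0 were lower at any day. The differences between these counts were not tested. The changes that passed were mostly under 2-fold: on the log2 scale, mitochondrial genes ran from -1.16 to 0.34 at day 2, -0.92 to 0.59 at day 6 and -1.39 to 0.63 at day 12, and peroxisomal genes from -0.48 to 0.52 at day 6 and -0.46 to 0.22 at day 12.

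**Figure D1:**
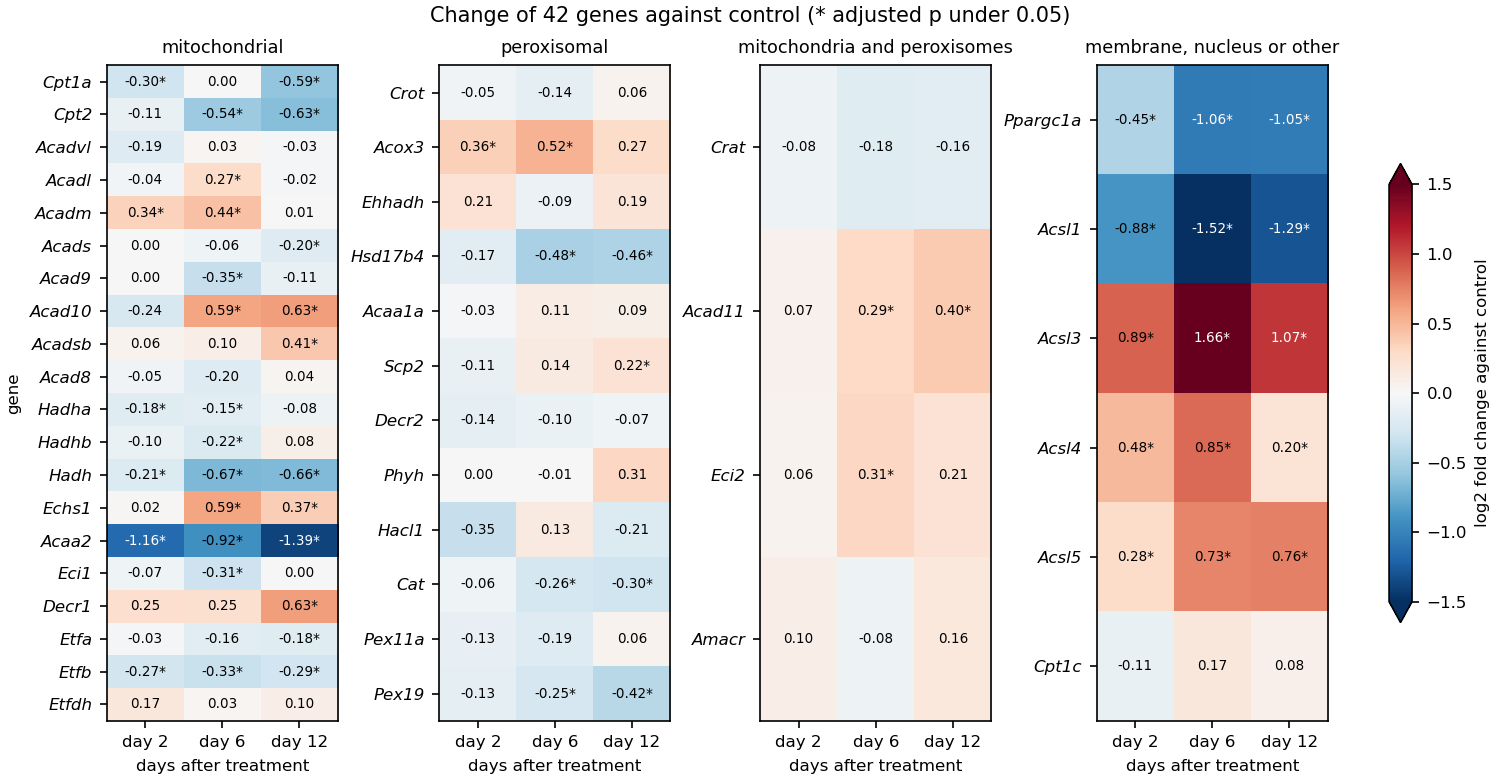
Log2 fold change against control (colour and printed value) for each tested gene in rows, at day 2, day 6 and day 12 in columns, with panels by compartment of the product; an asterisk marks an adjusted p under 0.05 in edgeR's quasi-likelihood test. Acsl1, Acaa2 and Ppargc1a are the most negative, with values down to -1.52 for Acsl1 at day 6, and Acsl3 is the most positive, at 1.66 on day 6.

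Ppara, the fatty acid receptor, was near the limit of detection: its control level was 0.616 ± 0.306 CPM, followed by 0.419 ± 0.233 (day 2), 0.602 ± 0.139 (day 6) and 1.21 ± 0.235 CPM (day 12). Its day 12 libraries, at 0.933, 1.35 and 1.34 CPM, overlapped the control libraries at 0.461, 0.969 and 0.418 CPM. In TPM they did not overlap, with 1.43, 0.78 and 0.97 at day 12 and 0.31, 0.66 and 0.36 in control. An exact two-sided permutation test on CPM gave p = 0.5, 0.9 and 0.2 at days 2, 6 and 12, with 0.1 the smallest p that 3 against 3 libraries allow. Ppargc1a (ENSMUSG00000029167, chr5:51454250-51567726, minus strand), whose product coactivates nuclear receptors of mitochondrial genes, had between 64.4 and 72.2 CPM in the control libraries. Libraries A, B and C had 54.7, 53.5 and 46.3 CPM at day 2. Day 6 libraries had 32.6, 33.8 and 33.7 CPM and day 12 libraries 34.5, 35.0 and 31.2 CPM. No treated library reached the lowest control library, and days 6 and 12 lay below every library of day 2. It was 1.36-fold lower at day 2 (log2 fold change -0.45 ± 0.08 SE, adjusted p = 5.06e-05), 2.08-fold lower at day 6 (-1.06 ± 0.08, adjusted p = 3.53e-13) and 2.07-fold lower at day 12 (-1.05 ± 0.08, adjusted p = 3.48e-13). From day 2 to day 6 it fell by a further 0.61 ± 0.09 (adjusted p = 4.51e-07), while day 12 against day 6 gave 0.01 ± 0.09 (adjusted p = 0.964).

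The 4 acyl-CoA synthetases, which activate long-chain fatty acids for oxidation or for lipid synthesis, all changed at all 3 days, and not in 1 direction. Acsl1 (ENSMUSG00000018796, chr8:46471037-46536051, plus strand), the form most tied to oxidation in muscle, fat and liver, fell from 61.3, 60.7 and 59.0 CPM in control to 35.9, 31.3 and 30.8 CPM at day 2. The libraries were at 20.3, 22.8 and 19.9 CPM by day 6 and at 25.8, 22.3 and 25.6 CPM by day 12. Every treated library was below every control library. The fall was 1.85-fold at day 2 (-0.88 ± 0.09, adjusted p = 3.52e-10), 2.87-fold at day 6 (-1.52 ± 0.09, adjusted p = 1.64e-16) and 2.45-fold at day 12 (-1.29 ± 0.09, adjusted p = 5.36e-15).

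Acsl3 (ENSMUSG00000032883, chr1:78657825-78707743, plus strand), a synthetase of the endoplasmic reticulum and of growing lipid droplets, was at 80.3, 72.9 and 77.1 CPM in control and 154, 123 and 145 CPM at day 2. Later values were 246, 241 and 242 CPM at day 6 and 164, 160.4 and 161 CPM at day 12. It peaked at day 6, 3.16-fold above control (1.66 ± 0.07, adjusted p = 2.81e-21), after 1.85-fold at day 2 (0.89 ± 0.07, adjusted p = 1.03e-12), and came down to 2.11-fold at day 12 (1.07 ± 0.07, adjusted p = 6.29e-16). The day 12 level was lower than that of day 6 by 0.59 ± 0.06 on the log2 scale (adjusted p = 5.72e-09).

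Acsl4 (ENSMUSG00000031278, chrX:142317993-142390535, minus strand), which prefers arachidonic acid and other polyunsaturated chains, also peaked at day 6. Its libraries were at 281, 260.3 and 295 CPM in control and 421, 373 and 375 CPM at day 2. By day 6 they were at 500.1, 519 and 491 CPM, and by day 12 at 345, 308 and 311 CPM. It was 1.40-fold higher at day 2 (0.48 ± 0.06, adjusted p = 7.92e-08) and 1.80-fold at day 6 (0.85 ± 0.06, adjusted p = 2.16e-14). At day 12 it was 1.15-fold higher (0.20 ± 0.06, adjusted p = 0.00434), a call that did not pass without day 12 A (adjusted p = 0.0527). Acsl5 (ENSMUSG00000024981, chr19:55251938-55297720, plus strand), found on the outer mitochondrial membrane and the endoplasmic reticulum, stood at 127, 119.8 and 123 CPM in control and 149, 148 and 151 CPM at day 2. Day 6 libraries had 209, 202 and 204 CPM and day 12 libraries 214, 202 and 211 CPM. It reached 1.66-fold of control at day 6 (0.73 ± 0.05, adjusted p = 1.23e-13) and held 1.69-fold at day 12 (0.76 ± 0.05, adjusted p = 4.22e-14), with 1.21-fold at day 2 (0.28 ± 0.06, adjusted p = 0.000267). Per transcript length, Acsl1 was at 24.9 TPM in control beside 41.2 for Acsl3, 47.0 for Acsl5 and 87.0 for Acsl4. Of the exon bases 5.60% of Acsl3 also belong to Utp14b and 8.31% of Acsl5 to Zdhhc6. Their reads may be split between those genes.

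**Figure D2:**
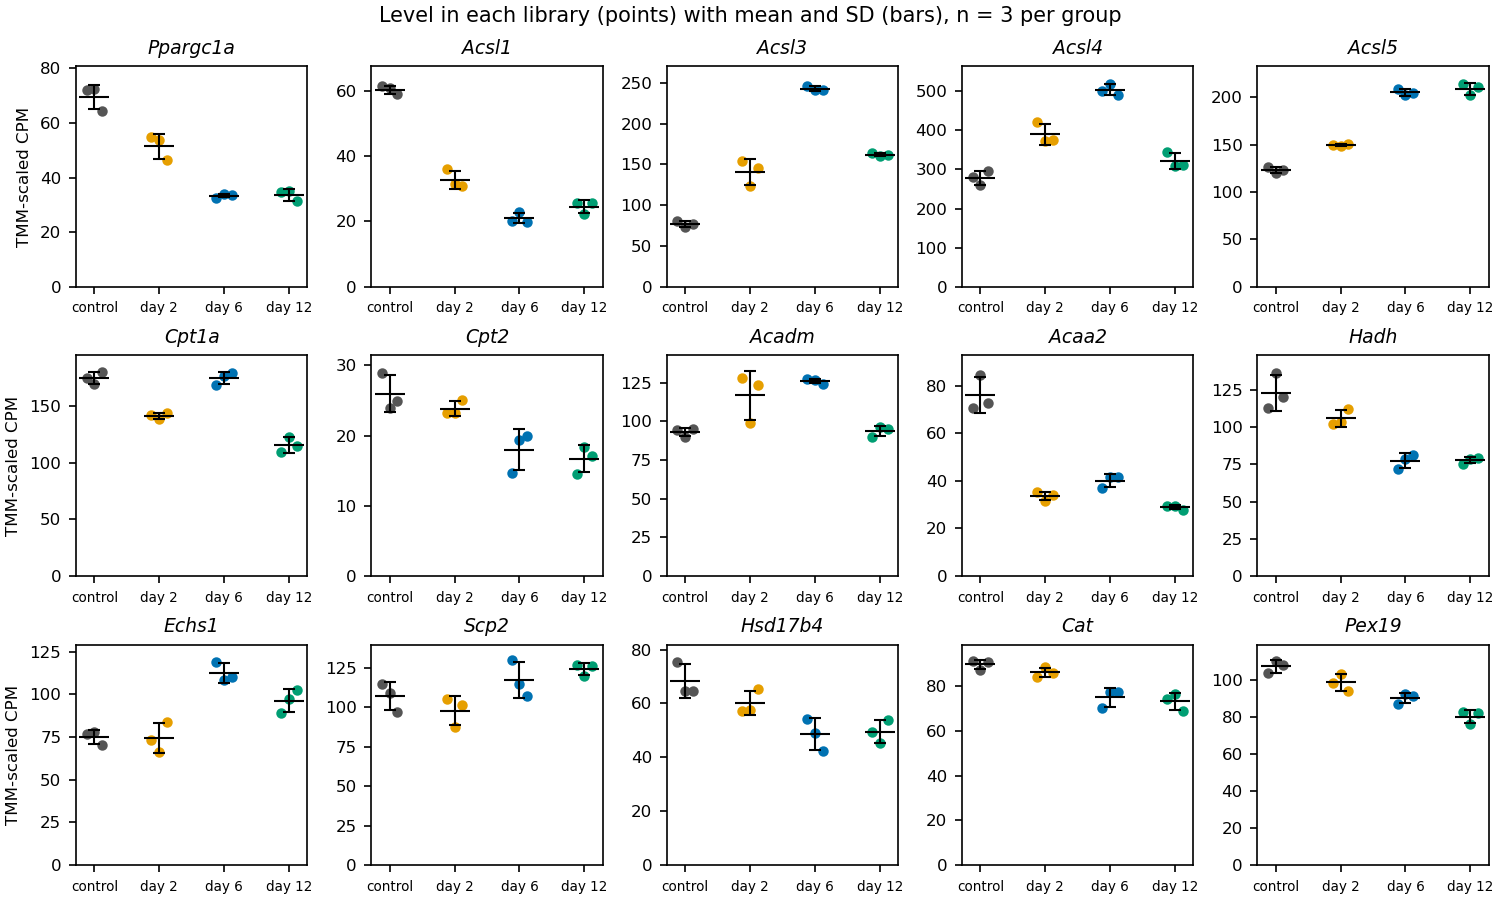
TMM-scaled CPM of 15 genes in each library (points), with the group mean and SD (bars, n = 3), on axes that start at 0, for control, day 2, day 6 and day 12. Acsl3 and Acsl4 peak at day 6, Ppargc1a and Acsl1 fall early, Cpt1a dips at day 2, returns at day 6 and falls at day 12, and Acaa2 is below control in every treated library.

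In the carnitine shuttle the entry enzyme moved in both directions between days. Cpt1a (ENSMUSG00000024900, chr19:3322334-3385733, plus strand), the rate-controlling carnitine palmitoyltransferase of kidney and liver, was at 175, 169 and 179 CPM in control and 142, 139 and 144 CPM at day 2. The libraries were at 168, 176 and 179 CPM by day 6 and at 109, 123 and 115 CPM by day 12. The day 2 and day 12 libraries lay below all control libraries, and the day 6 libraries overlapped them. It was 1.23-fold lower at day 2 (-0.30 ± 0.06, adjusted p = 0.000149) and 1.51-fold lower at day 12 (-0.59 ± 0.06, adjusted p = 9.35e-11), with 0.999-fold of control at day 6 (adjusted p = 0.983). The step from day 2 to day 6 was a rise of 0.30 ± 0.06 (adjusted p = 7.33e-05), and that from day 6 to day 12 a fall of the size seen at day 12 (1.51-fold, adjusted p = 1.33e-09). Cpt2 (ENSMUSG00000028607, chr4:107903981-107923610, minus strand), the inner membrane partner, was at 28.9, 23.9 and 25.0 CPM in control, 14.6, 19.3 and 20.005 CPM at day 6 and 14.6, 18.4 and 17.2 CPM at day 12, with no overlap with control at either day. It was 1.45-fold lower at day 6 (-0.54 ± 0.12, adjusted p = 0.000232) and 1.55-fold lower at day 12 (-0.63 ± 0.12, adjusted p = 3.01e-05). On the TPM scale the day 6 difference was -0.21 and did not pass (limma on log2(TPM + 1), adjusted p = 0.169). The brain form Cpt1c, the carnitine acetyltransferase Crat and the peroxisomal octanoyltransferase Crot did not pass at any day, with log2 values between -0.18 for Crat and 0.17 for Cpt1c, both at day 6. Crat passed as lower without control A at day 6 (adjusted p = 0.0241) and day 12 (0.0367) and without day 6 A at day 6 (0.0425), and Crot at day 6 without day 6 B (0.0348).

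The acyl-CoA dehydrogenases, which take the first step of the spiral and are specific for chain length, did not move together. Acadvl, for very long chains, was at 82.7 ± 0.894 CPM in control and 84.6 ± 1.13 CPM at day 6 and did not pass at any day. Without day 2 C, at 86.1 CPM beside 68.4 and 57.3 CPM, it was lower at day 2 (-0.37, adjusted p = 0.000881). Of the Acadvl exon bases 42.9% also belong to exons of Dvl2 on the opposite strand, so its counts are uncertain. Acadl, for long chains, rose at day 6 only, to 112, 120.1 and 107 CPM from 91.8, 91.6 and 97.6 CPM in control (1.21-fold, 0.27 ± 0.07, adjusted p = 0.000956), and was at 92.7 ± 7.91 CPM at day 12.

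Acadm (ENSMUSG00000062908, chr3:153922357-153944632, minus strand), for medium chains and a textbook PPAR alpha target in mouse liver, was at 94.2, 90.1 and 95.0 CPM in control and 128, 98.9 and 124 CPM at day 2. Later values were 127, 127 and 124 CPM at day 6 and 90.1, 96.5 and 94.9 CPM at day 12. Day 2 and day 6 libraries lay above all control libraries, day 2 B by the least, and day 12 libraries overlapped them. It was 1.27-fold higher at day 2 (0.34 ± 0.07, adjusted p = 0.000303), which did not pass on the TPM scale (limma, 0.22, adjusted p = 0.452), and 1.35-fold higher at day 6 (0.44 ± 0.07, adjusted p = 1.79e-06). At day 12 it was back at 1.01-fold (adjusted p = 0.915), a fall from day 6 of 0.43 on the log2 scale (SE 0.07, adjusted p = 1.46e-05; limma on log2(TPM + 1), 0.411). Acads, for short chains, was lower at day 12 (40.4 ± 2.81 against 46.6 ± 5.33 CPM, -0.20 ± 0.08, adjusted p = 0.0494), with overlapping libraries. It did not pass in 13 of 20 other settings, with adjusted p = 0.334 without control B, 0.149 without day 12 A and 0.162 without day 12 B.

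Among the less common dehydrogenases, Acad9, which also assembles respiratory complex I, was lower at day 6 (49.5, 51.6 and 47.1 CPM against 62.7, 62.1 and 63.7 CPM, 1.27-fold, adjusted p = 0.000264). On the TPM scale that difference was -0.03 (limma, adjusted p = 0.89). Acadsb, of short branched chains, rose at day 12 to 59.6, 58.8 and 60.9 CPM from 48.6, 44.7 and 41.8 CPM (1.33-fold, 0.41 ± 0.08, adjusted p = 4.23e-05), while Acad8, of isobutyryl-CoA, did not pass at any day. Acad10 and Acad11, which act on hydroxylated fatty acids, rose late from low levels. Acad10 went from 4.89 ± 0.312 CPM to 7.53 ± 2.47 CPM at day 6 (0.59 ± 0.21, adjusted p = 0.0156; 0.211 without day 6 C, at 10.3 CPM, and 0.0521 without control A) and 7.59 ± 0.366 CPM at day 12 (0.63 ± 0.21, adjusted p = 0.0099). Neither day passed with limma on log2(TPM + 1) (adjusted p = 0.087 at day 6 and 0.0892 at day 12). Acad11 went from 16.6 ± 1.56 to 20.6 ± 2.96 CPM at day 6 (0.29 ± 0.12, adjusted p = 0.0372) and 21.9 ± 1.58 CPM at day 12 (0.40 ± 0.12, adjusted p = 0.00525). Its day 6 call was lost without control B, control C, day 6 B or day 6 C (adjusted p = 0.051 to 0.227).

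Of the 5 genes of the later steps of the spiral, 3 were lower at day 2, 4 at day 6 and 2 at day 12, beside 10.9%, 27.6% and 26.6% of all genes, and Echs1 alone was higher, at days 6 and 12. Acaa2, the mitochondrial 3-ketoacyl-CoA thiolase that cuts off acetyl-CoA, had the largest fall of the mitochondrial genes on all 3 days. Its libraries were at 70.7, 84.7 and 73.0 CPM in control and 35.2, 31.6 and 34.2 CPM at day 2. By day 6 they were at 37.2, 41.5 and 41.7 CPM, and by day 12 at 29.4, 29.4 and 27.9 CPM. It was 2.24-fold lower at day 2 (-1.16 ± 0.08, adjusted p = 2.66e-13), 1.89-fold lower at day 6 (-0.92 ± 0.08, adjusted p = 5.68e-12) and 2.63-fold lower at day 12 (-1.39 ± 0.08, adjusted p = 2.59e-16). Every treated library was below every control library, and the highest treated value, 41.7 CPM, was well under the lowest control value.

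Hadh (ENSMUSG00000027984, chr3:131233419-131272101, minus strand), the 3-hydroxyacyl-CoA dehydrogenase of medium and short chains, fell more slowly. It was at 113, 137 and 120.0 CPM in control and 102, 103 and 112 CPM at day 2. Day 6 libraries had 71.9, 78.8 and 81.6 CPM and day 12 libraries 75.4, 78.7 and 79.3 CPM. The falls were 1.59-fold at day 6 (-0.67 ± 0.07, adjusted p = 5.29e-10) and 1.58-fold at day 12 (-0.66 ± 0.07, adjusted p = 6.52e-10). At day 2 the 1.15-fold difference (adjusted p = 0.0292) did not pass with DESeq2 (adjusted p = 0.0597), with limma on log2(TPM + 1) (0.0746) or without control B (0.25), day 2 A (0.148) or day 2 B (0.0633).

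Echs1 (ENSMUSG00000025465, chr7:140105710-140116476, minus strand), the short-chain enoyl-CoA hydratase of the preceding step, went the other way, from 76.7, 78.0 and 70.2 CPM in control to 119, 108 and 110.2 CPM at day 6 and 89.0, 97.3 and 103 CPM at day 12. It was 1.51-fold higher at day 6 (0.59 ± 0.07, adjusted p = 2.6e-08) and 1.29-fold higher at day 12 (0.37 ± 0.07, adjusted p = 9.67e-05), and its day 2 libraries, between 66.2 and 84.0 CPM, lay on both sides of control. Hadha and Hadhb, the 2 subunits of the trifunctional protein that handles long chains, changed little. Hadha was at 171 ± 5.76 CPM in control, 151 ± 9.48 at day 2 and 154 ± 3.66 at day 6, with adjusted p = 0.0248 and 0.0238. Neither call held with limma on log2(TPM + 1) (adjusted p = 0.0919 and 0.639), without control B (0.0604 and 0.0506) or without control C (0.117 and 0.0995); the day 2 call was also lost without day 2 A (0.19) and the day 6 call without day 6 B (0.0906). Hadhb was lower at day 6 only (60.5 ± 2.23 against 70.4 ± 0.856 CPM, adjusted p = 0.00628), which did not pass on the TPM scale (limma, adjusted p = 0.296).

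The auxiliary enzymes that prepare unsaturated chains did not move in 1 direction. Eci1, a mitochondrial enoyl-CoA isomerase, was lower at day 6 alone (30.5 ± 1.47 against 37.8 ± 2.79 CPM, 1.24-fold, adjusted p = 0.0041; limma on log2(TPM + 1), 0.312). Eci2, an isomerase of both organelles, was higher at day 6 (61.9 ± 8.64 against 50.2 ± 4.39 CPM, 1.24-fold, adjusted p = 0.00455), with day 6 C, at 52.3 CPM, inside the control range. The call was lost without day 6 B (0.0528). At day 12 (adjusted p = 0.0507) one was gained in several settings, among them without control B (0.022), with no filter on low counts (0.0254) and with only the 2 groups compared (0.0129). Decr1, the mitochondrial dienoyl-CoA reductase, rose at day 12 to 30.9, 30.3 and 30.6 CPM from 19.8 ± 1.04 CPM (1.55-fold, 0.63 ± 0.11, adjusted p = 9.71e-06). The Decr1 libraries of days 2 and 6 lay between 18.2 and 27.1 CPM and did not pass (adjusted p = 0.129 and 0.0678), except without day 2 B (0.0221 and 0.0367). Day 6 also passed without day 6 C (0.0291) and with only the 2 groups compared (0.0471).

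The electron transfer flavoprotein takes up the electrons of the acyl-CoA dehydrogenases. Etfb (ENSMUSG00000004610, chr7:43444083-43457800, plus strand), its beta subunit, was the most abundant of the 43 genes per length, at 233 ± 11.8 TPM in control. Its counts were at 61.1, 71.9 and 65.1 CPM in control and 54.4, 58.2 and 52.4 CPM at day 2. The libraries were at 56.5, 51.5 and 48.3 CPM by day 6 and at 48.3, 59.7 and 54.0 CPM by day 12, so that no treated library reached a control library. The falls were 1.21-fold at day 2 (adjusted p = 0.0177), 1.26-fold at day 6 (adjusted p = 0.000876) and 1.22-fold at day 12 (adjusted p = 0.00383). The day 2 call was lost without control B (adjusted p = 0.118), day 2 A (0.0591) or day 2 C (0.0842). Of the Etfb exon bases 53.0% also belong to Gm45233 on the same strand, so its level and counts are uncertain. Gm45233 had a mean count of 3.17 beside 484 for Etfb. Etfa, the alpha subunit, was at 99.7 ± 6.73 CPM in control and 88.2 ± 4.60 CPM at day 12 (1.13-fold lower, adjusted p = 0.0418), a call lost in 9 of 20 other settings (adjusted p = 0.219 without control A, 0.182 without day 12 A and 0.0724 without day 12 B). Etfdh, the oxidoreductase that hands the electrons to ubiquinone, did not pass at any day, at 99.2 ± 5.85 CPM in control and 106 ± 7.18 CPM at day 12. Without day 2 B, at 92.8 CPM beside 124 and 113 CPM, it was higher at day 2 (0.26, adjusted p = 0.00631).

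Of the 9 genes of peroxisomal oxidation, 3 passed against control on at least 1 day (66.7% of all genes did): Acox3, Hsd17b4 and Scp2. Hacl1 passed between day 2 and day 6 and in the F-test across groups (adjusted p = 0.0268), but on no day against control. Acox3 (ENSMUSG00000029098, chr5:35583040-35615352, plus strand), an acyl-CoA oxidase of branched chains, was at 21.7, 27.5 and 18.7 CPM in control, 29.4, 31.8 and 26.3 CPM at day 2 and 33.6, 29.8 and 32.8 CPM at day 6. The day 6 libraries lay above control (1.43-fold, 0.52 ± 0.12, adjusted p = 0.000298), while day 2 overlapped it. The day 2 difference (1.28-fold, adjusted p = 0.0303) did not pass on the TPM scale (limma, adjusted p = 0.154) or without control A (0.0953), control C (0.239), day 2 A (0.0983) or day 2 B (0.0873). At day 12 the difference was 0.27 ± 0.12 (adjusted p = 0.0519). It passed in several other settings, among them without control B (0.42, adjusted p = 0.00388) and with limma on log2(TPM + 1) (0.0485).

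Hsd17b4, the D-bifunctional protein of hydration and dehydrogenation, was lower late: 75.6, 64.6 and 64.6 CPM in control, 54.3, 49.2 and 42.5 CPM at day 6 and 49.5, 45.3 and 53.8 CPM at day 12. It was 1.40-fold lower (-0.48 ± 0.09, adjusted p = 2.34e-05) and then 1.38-fold lower (-0.46 ± 0.09, adjusted p = 4.04e-05), with no library overlapping control. Ehhadh, the L-bifunctional protein and a strongly PPAR alpha dependent gene of mouse liver, was scarcely detected, at 1.05 ± 0.405 CPM in control and 0.929 ± 0.577 to 1.18 ± 0.0968 CPM in the treated groups. As few as 4 counts in a library limit what can be seen of it. Acaa1a, the peroxisomal thiolase, did not pass at any day (50.8 ± 6.41 CPM in control, 54.9 ± 2.50 at day 6). Its near-identical neighbour Acaa1b could take some of its reads, which was not measured, so its values are uncertain.

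Scp2 (ENSMUSG00000028603, chr4:108043839-108144998, minus strand), which makes a thiolase of branched chains and a lipid carrier from 1 gene, was the most abundant peroxisomal gene, at 173 ± 18.2 TPM in control and 242 ± 7.24 TPM at day 12. In counts it was at 115, 109 and 97.1 CPM in control, 129.6, 114 and 107 CPM at day 6 and 127, 119.8 and 126 CPM at day 12. Only day 12 passed (1.16-fold, 0.22 ± 0.07, adjusted p = 0.0126; 0.125 without control C). Day 6 (adjusted p = 0.119) passed without control A (0.0484) or day 6 C (0.043). On the TPM scale the difference was 0.47 at day 6 and 0.49 at day 12, and both passed (limma, adjusted p = 0.00421 and 0.00378). Decr2, the peroxisomal dienoyl-CoA reductase, Phyh and Hacl1, which start alpha-oxidation of phytanic acid, and Amacr, the racemase of branched chains, did not pass against control at any day. Their day 12 values were -0.07 ± 0.08, 0.31 ± 0.14, -0.21 ± 0.15 and 0.16 ± 0.18 on the log2 scale (adjusted p = 0.533, 0.0688, 0.254 and 0.46). On the TPM scale Hacl1 was lower at day 12 (limma, -0.46, adjusted p = 0.0187). Of the Hacl1 exon bases 31.1% also belong to Gm49387 on the same strand (mean count 0.167 beside 90.3 for Hacl1), so its counts are uncertain. Phyh passed at day 12 without day 12 C (0.40, adjusted p = 0.0308) or day 2 B (0.31, adjusted p = 0.0294), and with only the 2 groups compared (0.0265).

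Cat (ENSMUSG00000027187, chr2:103453849-103485160, minus strand), catalase, fell from 91.1, 87.3 and 90.8 CPM in control to 70.3, 77.6 and 77.2 CPM at day 6 and 74.3, 76.4 and 68.9 CPM at day 12, with no overlap. That was 1.20-fold (-0.26 ± 0.07, adjusted p = 0.00107; limma on log2(TPM + 1), 0.113) and 1.23-fold (-0.30 ± 0.07, adjusted p = 0.000288). Pex19 (ENSMUSG00000003464, chr1:172126755-172136493, plus strand), the chaperone that brings membrane proteins to the peroxisome, stepped down from 104, 110.0 and 108 CPM to 87.2, 92.3 and 91.4 CPM at day 6 (1.19-fold, adjusted p = 0.00102; limma on log2(TPM + 1), 0.0586) and 82.4, 76.0 and 82.2 CPM at day 12 (1.34-fold, -0.42 ± 0.06, adjusted p = 7.77e-07). Pex11a, a PPAR alpha target in liver that promotes peroxisome division, did not pass at any day, at 13.8 ± 0.464 CPM in control and 14.3 ± 1.13 CPM at day 12.

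Per transcript length the 20 mitochondrial genes summed to 1447 ± 27.04 TPM in control. The later sums were 1289 ± 130 (day 2), 1437 ± 27.9 (day 6) and 1328 ± 50.3 TPM (day 12), or 0.890, 0.993 and 0.918 of control. Day 2 C, at 1432 TPM, lay in the control range and day 2 B at 1178 TPM was the lowest library. The 12 peroxisomal genes summed to 529 ± 12.4, 494 ± 30.1, 584 ± 11.73 and 569.8 ± 10.6 TPM, or 0.933, 1.10 and 1.08 of control. The 2 later ratios above 1 depended on Scp2: without it they were 0.965 and 0.920, and in summed CPM they were 0.939 and 0.940. These sums carry no test.

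**Figure D3:**
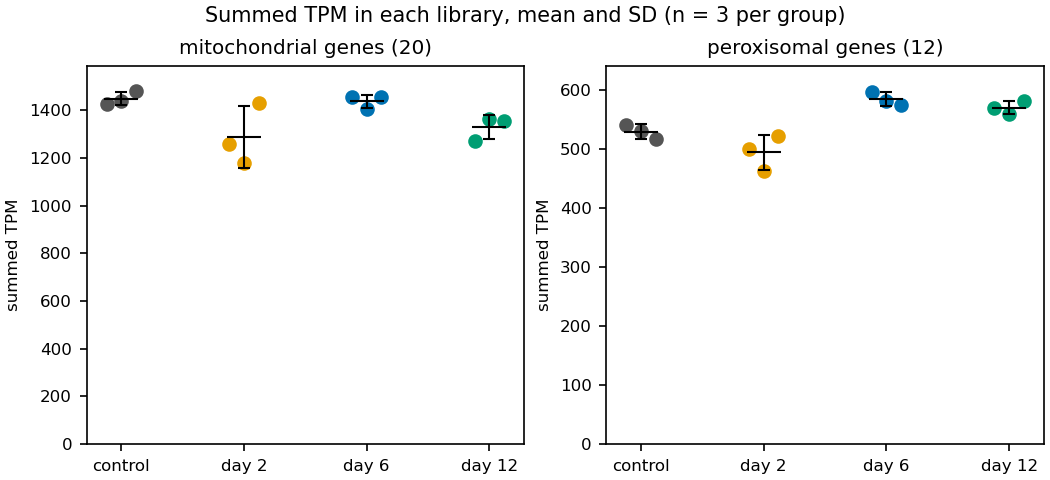
Summed TPM of the 20 mitochondrial genes (left) and the 12 peroxisomal genes (right) in each library (points) with the group mean and SD (bars, n = 3), on axes from 0. The mitochondrial sum of day 2 spreads from 1178 to 1432 TPM, and the peroxisomal sums of days 6 and 12, at 584 and 569.8 TPM, lie above the control mean of 529 TPM.

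Other genes of the same pathways were counted from lists of general knowledge. Of 20 further genes of fatty acid oxidation tested, 0 were higher and 6 lower at day 2, 2 higher and 11 lower at day 6, and 1 higher and 7 lower at day 12. Among them Mmut, the methylmalonyl-CoA mutase that ends the oxidation of odd chains, went from 92.3 ± 3.81 to 49.5 ± 4.39 CPM at day 6 (-0.90, adjusted p = 4.35e-12), and Acacb, whose product makes the malonyl-CoA that restrains CPT1, from 12.6 ± 0.513 to 7.20 ± 0.699 CPM at day 2 (-0.83). Of 27 further peroxisomal enzymes and transporters tested, 3 were higher and 5 lower at day 2, 4 and 15 at day 6, and 4 and 14 at day 12. There the enoyl-CoA reductase Pecr was lower at day 6 (-1.01) and day 12 (-1.17), as was Gnpat of plasmalogen synthesis (-0.43 and -0.53), and the transporter Slc25a17 was higher (0.58 and 0.69). Of 17 further peroxins, 1 was higher at day 2, 2 were higher and 1 lower at day 6, and 4 were higher and 3 lower at day 12; Pex5, the import receptor, was higher on all 3 days (0.31, 0.67 and 0.42). Medians of these 3 lists at day 6 were -0.25, -0.27 and -0.06 on the log2 scale, the last of which was 0.0066 in TPM. Those passing at the 3 days were 30%, 65% and 40% of the oxidation genes and 29.6%, 70.4% and 66.7% of the enzymes and transporters. Of the peroxins 5.88%, 17.6% and 41.2% passed. Among all genes the shares were 21.2%, 54.3% and 52.8%.

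Among the nuclear receptors that act on the pathway, Hnf4a and Esrrg were lower on all 3 days and Pparg was higher on all 3. Of 15 receptors and partners tested, 1 was higher and 4 were lower at day 2, 4 and 4 at day 6, and 3 and 5 at day 12. That is 33.3%, 53.3% and 53.3% passing, beside 21.2%, 54.3% and 52.8% of all genes. Hnf4a, the nuclear receptor of the differentiated proximal tubule, went from 12.8 ± 2.99 CPM in control to 1.03 ± 0.529, 0.303 ± 0.166 and 2.05 ± 0.718 CPM, and Esrrg, an oestrogen-related receptor of oxidative tissues, from 19.6 ± 1.88 to 9.60 ± 1.41, 5.15 ± 1.45 and 3.75 ± 1.40 CPM. Pparg, the receptor of fat storage, went from 1.86 ± 0.232 to 7.79 ± 0.744, 11.6 ± 1.33 and 13.3 ± 1.95 CPM, and Rxra, its dimer partner, from 61.1 ± 3.34 to 100.3 ± 3.88 CPM at day 12. Of 20 PPAR target genes outside oxidation, 8 were under the filter on low counts. Of the 12 tested, 2 were higher and 0 lower at day 2, and 8 higher and 2 lower at day 6. At day 12, 8 were higher and 3 lower. Those passing were 16.7%, 83.3% and 91.7% of the 12, beside 21.2%, 54.3% and 52.8% of all genes. Medians of the 12 were 0.09, 0.76 and 0.54 (in TPM -0.03, 0.66 and 0.38). Plin2, the coat of lipid droplets, went from 96.6 ± 3.97 to 273 ± 6.31 CPM at day 6 and 195 ± 5.93 CPM at day 12 (log2 fold change 1.01).

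Neighbouring mitochondrial pathways were lower in most of their genes at days 6 and 12. Of 21 genes of the tricarboxylic acid cycle, which takes up the acetyl-CoA, 9 were lower at day 2, 21 at day 6 and 17 at day 12, with 0, 0 and 1 higher. Mdh2, the malate dehydrogenase, went from 351 ± 15.6 to 188 ± 9.05 CPM at day 6 (-0.90), and Idh3a, of isocitrate dehydrogenase, from 87.0 ± 7.29 to 36.3 ± 1.98 CPM (-1.26). Of 43 nuclear genes of the respiratory chain, which takes the electrons, 20 were lower at day 2, 38 at day 6 and 36 at day 12, with 0 higher on any day; Atp5b of ATP synthase went from 1394 ± 62.5 to 778 ± 8.52 CPM at day 6. Medians at day 6 were -0.44 for both lists (in TPM -0.35 and -0.39), beside -0.11 for the 20 mitochondrial oxidation genes. Of 16 genes of mitochondrial import, porins and chaperones, 7 were lower at day 2 and 11 at days 6 and 12, with 0, 1 and 1 higher. Over all genes 10.9%, 27.6% and 26.6% were lower on these days. The difference between these lists was not tested.

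**Figure D4:**
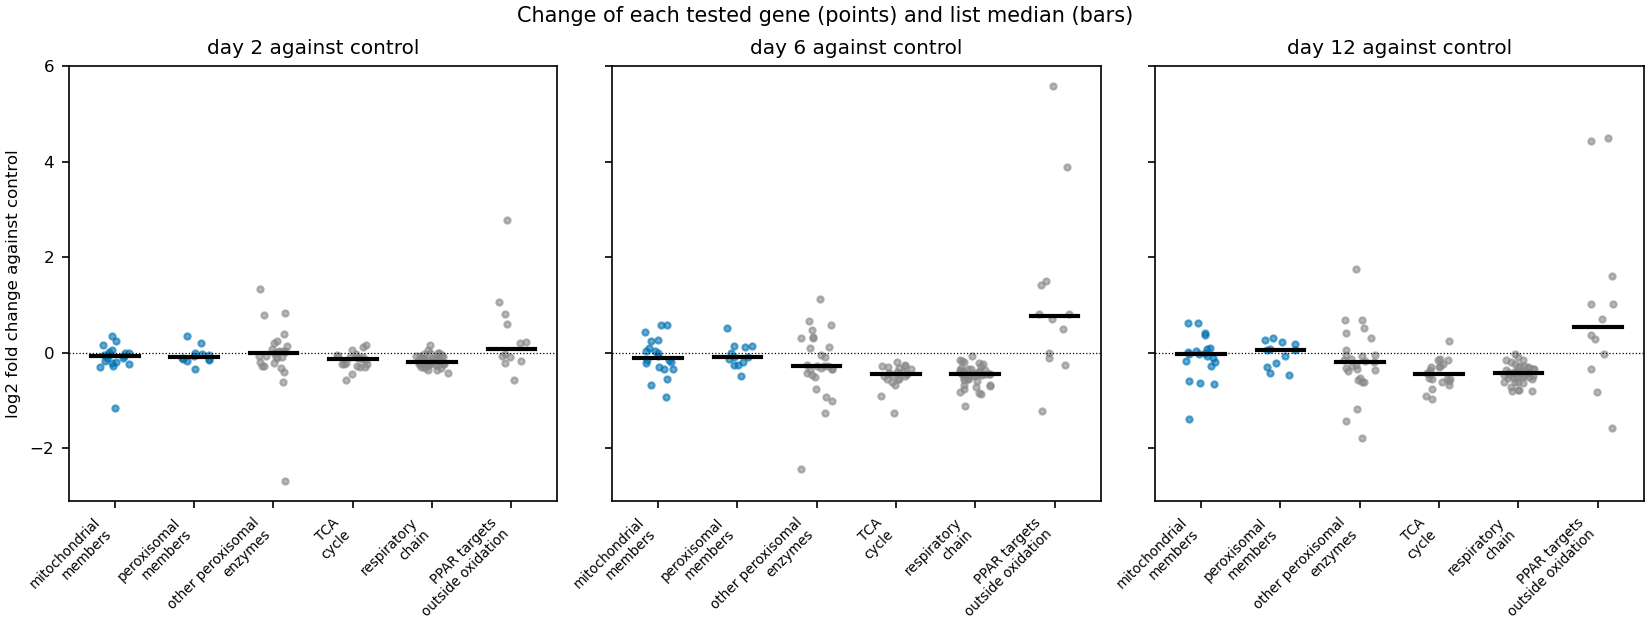
Log2 fold change against control of each tested gene (points) and the median (bars) at day 2, day 6 and day 12, for the 20 mitochondrial and 12 peroxisomal genes (blue) and 4 other lists (grey). At day 6 the tricarboxylic acid cycle and respiratory chain genes sit around -0.44 with no gene called higher, the oxidation genes spread on both sides of 0, and the PPAR targets outside oxidation have a median of 0.76.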

How the data were processed

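Bulk polyA RNA of 12 libraries was analysed in 4 groups of 3. The submitters' processing notes name RSEM 1.3.3, STAR 2.7.8a, cutadapt 2.3, FastQC 0.11.8 and the build GRCm38. Annotation release, strand setting and filters are not given in the sources used here. The authors deposited RSEM expected counts as whole numbers, without normalization, and TPM in a second table; columns without a sample numbered 0. Between 34 and 60 genes in each library had a TPM above 0 but no count.

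The count test was edgeR 4.0.16 (R 4.3.3): filterByExpr by group, TMM, 1 robust quasi-likelihood model of group over all 12 libraries (13513 genes, 8 residual degrees of freedom), two-sided tests, Benjamini-Hochberg adjustment over all genes tested. The 43 genes, the other lists and the alternatives were chosen with earlier results of these data known. All 43 genes may be named; of each other list, Hnf4a and the up to 4 genes with the smallest p in the F-test across groups may be named. Acta2 is among its list's 4. 1 gene that the rule allows is not reported here. Levels were given as TMM-scaled CPM or as the deposited TPM, and sums used the deposited TPM. Alternatives included limma 3.58.1 on log2(TPM + 1) or log2(TPM + 0.1), and DESeq2 1.42.0. Others were edgeR fits with another filter, other size factors, only the 2 groups compared, a replicate block or 1 library left out. Gene positions came from GENCODE M21, in which all 43 IDs were found. Between replicates the chi-square per degree of freedom was 2.12 to 7.56 over genes with at least 20 counts, so no library was a copy. The edgeR step was tested on simulated data for day 2 against control, over 13216 genes: it recovered 96% of genes changed 1.5-fold and 100% of those changed 2-fold, with 11 false calls. The simulated counts gave every gene the same biological coefficient of variation, 0.0577. In them 200 genes were changed, at day 2 only and none of low level. Real libraries spread unevenly, so these shares do not give the power of the real test.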

Additional observations from a re-analysis of the deposited data

Results flagged for a closer look

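The same gene's change differed between days, by the edgeR test of one treated day against another, in 19 of 42 genes from day 2 to day 6 (44.9% of all genes) and in 12 of 42 from day 6 to day 12 (22% of all genes). The values are log2 differences of the later day minus the earlier one.

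From day 2 to day 6 the regulator and synthetases differed by -0.61 (Ppargc1a), -0.64 (Acsl1), 0.77 (Acsl3), 0.37 (Acsl4) and 0.46 (Acsl5), and the carnitine transferases by 0.30 (Cpt1a) and -0.43 (Cpt2). The dehydrogenases differed by 0.31 (Acadl), -0.35 (Acad9) and 0.83 (Acad10). Later steps of the mitochondrial spiral and the isomerases differed by -0.46 (Hadh), 0.57 (Echs1), 0.24 (Acaa2), -0.24 (Eci1) and 0.26 (Eci2). Peroxisomal genes differed by -0.31 (Hsd17b4), 0.25 (Scp2), 0.48 (Hacl1) and -0.20 (Cat). Hacl1 passed in this step (adjusted p = 0.0102, 12.3 ± 0.966 CPM at day 6 and 9.05 ± 1.08 CPM at day 2) while neither day passed against control. Of the 19 calls 12 also passed with limma on log2(TPM + 1). That fit lost Cpt2 (adjusted p = 0.115), Acad9 (0.76), Eci1 (0.655), Eci2 (0.0857), Hsd17b4 (0.248), Hacl1 (0.226) and Cat (0.46), and DESeq2 lost Eci1 (0.0819). In 8 genes a call ended when 1 library was left out. These were Cpt2 without day 6 A (0.0713), Scp2 without day 6 A (0.101), Cat without day 6 A (0.109), and Hacl1 and Hsd17b4 without day 2 C (0.0646 and 0.072) or without day 6 B (0.0512, Hacl1) or day 6 C (0.055, Hsd17b4). Acaa2 was lost without day 2 B (0.0609), day 2 C (0.0509), day 6 B (0.0914) or day 6 C (0.0887). Eci1 was lost without day 2 C (0.283), day 6 B (0.126) or day 6 C (0.0514), and Eci2 without day 2 B (0.0866), day 2 C (0.0535), day 6 A (0.0975) or day 6 B (0.17).

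From day 6 to day 12 the genes that had peaked differed by -0.59 (Acsl3), -0.65 (Acsl4), -0.29 (Acadl), -0.43 (Acadm) and -0.22 (Echs1), and Cpt1a and Acaa2 by -0.59 and -0.47. Genes that were lower at day 6 or rose late differed by 0.23 (Acad9), 0.31 (Acadsb), 0.31 (Hadhb), 0.30 (Eci1) and 0.38 (Decr1). With limma on log2(TPM + 1) 5 of the 12 calls passed. That fit lost all 5 of these later genes (adjusted p = 0.744, 0.661, 0.189, 0.349 and 0.165), with Acad9 changing sign, as well as Acadm (0.411) and Echs1 (0.13). Acad9 was also lost with DESeq2 (0.0543) and without day 6 A (0.0725), day 6 C (0.116), day 12 A (0.0621), day 12 B (0.0632) or day 12 C (0.11). Eci1 was lost without day 6 B (0.0624) or day 12 A (0.0848), Decr1 without day 6 C (0.0741), and Echs1 without day 6 A (0.145), day 12 A (0.126) or day 12 B (0.0512). Passing in this step were 10 of the 20 mitochondrial genes (50%), 2 of the 4 acyl-CoA synthetases and 0 of the 12 peroxisomal genes, beside 22% of all genes. In other settings some peroxisomal genes did pass. Pex19 was lower with limma on log2(TPM + 1) (-0.255, adjusted p = 0.0307) and with DESeq2 size factors in edgeR (0.045). Crot passed without day 6 B (0.0238), Acox3 without day 12 A (0.0387) and Phyh with only the 2 groups compared (0.0427). The difference between compartments was not tested.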

How the results depend on the processing

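With limma on log2(TPM + 1) or log2(TPM + 0.1), counts of these genes were 3 higher at day 2, 6 lower (with 9 higher) at day 6, 3 lower from day 2 to day 6, 0 higher from day 6 to day 12 and 6 lower from day 2 to day 12, against 5, 13 (with 10 higher), 8, 5 and 11. On that scale the median of all genes moved by 0.115 to 0.13 from day 2 to day 6, and at day 6 3537 genes were higher and 2181 lower (log2(TPM + 1)), against 3614 and 3729; the cause was not tested. With a fold of at least 1.5 besides the threshold, the higher and lower counts were 1 and 2 at day 2, 5 and 4 at day 6, 4 and 6 at day 12, 2 and 2 from day 2 to 6, 0 and 3 from day 6 to 12, and 1 and 1 from day 2 to 12. Leaving out each library in turn gave 4 to 7 lower genes at day 2 (4 without control B or day 2 A) and 3 to 5 higher genes from day 6 to 12 (3 without day 6 C or day 12 A). Summed TPM over control at day 6 was 1.03 for mitochondrial genes without Etfb and 0.958 in CPM, and for peroxisomal genes 0.965 without Scp2 and 0.939 in CPM; at day 12 the peroxisomal values were 0.920 and 0.940. Directions reversed with limma on TPM only: Acad9 from day 2 to 6 (0.0708 and 0.0731), Acad9 from day 6 to 12 (-0.10 and -0.11), and Acadm from day 2 to 12 (0.00981 and 0.0100). Of the 107 single-gene calls that passed over the 6 comparisons, 37 were lost with limma on TPM and 9 with DESeq2, and 29 were lost without at least 1 library (81 of 1284 refits); 42 of 1740 refits of the others gained a call. No pairing of libraries by the letters A, B and C was seen, which does not exclude one. Same-letter correlations of deviations ran from -0.149 to 0.111, and 4 of the 12 libraries correlated best with their own letter. The replicate block gave 5 higher and 7 lower genes at day 2, 10 and 13 at day 6 and 10 and 12 at day 12, with 0 calls lost and 2 gained. Depth limits Ppara and Ehhadh, each near 1 CPM.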
